A study of Mus musculus with 12 samples.

Results

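The genes described here encode the transferases of phase II metabolism: the glutathione S-transferases of the alpha, mu, pi, theta, kappa and omega classes (Gst), the UDP-glycosyltransferases (Ugt) and the sulfotransferases (Sult). Members were taken by symbol, as every gene named Gsta, Gstm, Gstp, Gstt, Gstk, Gsto, Ugt or Sult followed by a digit and carrying a probe set assigned to that gene alone. This gave 43 of the 18193 genes measured, of which 19 were Gst, 11 Ugt and 13 Sult genes. Transcript levels came from 12 Affymetrix mouse arrays, 1 for each combination of liver, lung, heart and thymus with 3 genotypes, and each array held a single RNA pool from 4 Sv/129 mice aged 2 months. The genotypes were WT, p53-/- (no p53 tumour suppressor) and p66-/- (no p66, the Shc1 isoform tied to oxidative stress), and no treatment was given. Plots and text use the same names. Values are log2 signals, so a difference of 1 is a 2-fold change, and signals of different genes were not set against each other because probes differ in brightness. A difference between a knock-out and WT within a tissue rests on 2 arrays and has no replicate check. Tissues were compared over their 3 arrays, 1 per genotype. Pools of different tissues may come from the same mice, which the labels do not settle, and the sex of the mice is not given in the sources used here.

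Phase II enzymes attach a polar group to drugs, hormones, bile pigments and reactive by-products of oxidation, so that the product dissolves in water and leaves through bile or urine. Glutathione S-transferases add glutathione to electrophiles, UDP-glycosyltransferases of families 1 and 2 add glucuronic acid in the endoplasmic reticulum, and sulfotransferases add sulfate in the cytosol. The liver is the main site of all 3 reactions, with gut, kidney and lung as further sites. Many Gst genes are also known targets of the oxidant-responsive factor NRF2, and Ugt2b genes are known targets of the liver factor HNF1.

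The members were covered by 55 single-gene probe sets, with 33 genes having 1 each, and the brightest over all arrays stood for the gene. The signal of 10 members (Gsto2, Gstt4, Sult1e1, Sult2a2, Sult2b1, Sult3a1, Sult4a1, Sult6b1, Ugt2b38 and Ugt8a) lay below the array median of genes on all 12 arrays. The Ugt1a genes, which share their last exons, were read only by 3 probe sets common to 8 genes and so are no members. On 1 of these the signal was 13.61 ± 0.13 in liver, 11.28 ± 0.27 in lung, 8.54 ± 0.55 in heart and 8.32 ± 0.57 in thymus (SD, n = 3).

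Some arrays read high for markers of another tissue. The mean of 23 hepatocyte markers was 9.51 on the WT lung array, 6.72 on the p53-/- and 8.63 on the p66-/- lung array, against 13.45 to 13.65 in liver. The mean of 15 salivary gland markers was 13.07 on the WT thymus array and 5.77 and 5.71 on the p53-/- and p66-/- thymus arrays, and 8.33 on the WT heart array against at most 6.18 on the other heart arrays. The mean of 12 club and ciliated cell markers was 8.10 on the WT, 6.54 on the p53-/- and 8.45 on the p66-/- thymus array, and the secretoglobin Scgb1a1 read 11.87, 7.13 and 13.22. The labelled tissues themselves were borne out: 23 of 23 hepatocyte markers were higher in liver, 10 of 11 alveolar markers in lung, 12 of 12 cardiomyocyte markers in heart and 11 of 12 thymocyte markers in thymus. Shc1 was measured by 2 probe sets, which read 8.57 to 9.09 and 5.74 to 7.24 over the WT arrays and 9.14 to 9.83 and 6.80 to 8.08 over the p66-/- arrays. Other Shc1 products share the gene and the place of these probes in it was not checked, so they are no check of the p66-/- label, and the p53 gene was not analysed here.

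The upstream sequences of the Ugt2b genes are shown first because they share a short run of letters, and 5 of these 7 genes had liver means over 40-fold above every other tissue. RefSeq promoter windows of build GRCm38.p6 (a C57BL/6J reference, not the strain of these mice) ran from 250 bases before to 50 after a transcript start and were found for 38 of the 43 members. The windows of the 7 Ugt2b genes were aligned on the letters ANNNNTTAA, chosen from these windows, which on the gene's own strand stood 1 time in each between 100 and 40 bases before the start. They are found there on that strand in 5.017% of all 32851 mouse windows. Extending this run for as long as all 7 agreed gave GTTANANNTTAAC, whose presence in these 7 is therefore by construction, and whose form resembles the site of HNF1 factors. Searched on both strands, it was present in 0.091% of all windows and in 1 further member, Ugt3a1. Ugt2a3 held instead a pair of GTTAAT units. At least 1 such unit, on either strand, was found in 7.099% of all windows and in 5 member genes, and pairs were not counted. Stretches of 73 bases are printed 5′ to 3′ with these letters in capitals.
Ugt2b1 (chr5:86926550-86926622, - strand): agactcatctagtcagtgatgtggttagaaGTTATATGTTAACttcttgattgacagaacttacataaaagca
Ugt2b34 (chr5:86906968-86907040, - strand): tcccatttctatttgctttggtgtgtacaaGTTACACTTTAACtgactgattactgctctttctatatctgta
Ugt2b35 (chr5:87000760-87000832, + strand): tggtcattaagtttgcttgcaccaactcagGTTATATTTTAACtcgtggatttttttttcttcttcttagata
Ugt2b36 (chr5:87092577-87092649, - strand): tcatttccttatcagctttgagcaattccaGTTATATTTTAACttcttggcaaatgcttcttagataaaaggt
Ugt2b37 (chr5:87254824-87254896, - strand): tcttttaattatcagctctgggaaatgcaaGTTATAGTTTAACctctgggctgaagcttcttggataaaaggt
Ugt2b38 (chr5:87424225-87424297, - strand): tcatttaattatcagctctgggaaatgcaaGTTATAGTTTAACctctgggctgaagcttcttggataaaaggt
Ugt2b5 (chr5:87140359-87140431, - strand): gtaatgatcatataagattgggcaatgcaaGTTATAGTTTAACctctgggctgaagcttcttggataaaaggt
Ugt2a3 (chr5:87337207-87337279, - strand): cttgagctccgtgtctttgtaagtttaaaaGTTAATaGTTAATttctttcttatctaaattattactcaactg
The run started 61 to 89 bases before the start in all 7 Ugt2b genes. The stretches of Ugt2b37 and Ugt2b38 were identical at 72 of 73 bases, those of Ugt2b37 and Ugt2b5 at 57, and those of Ugt2b1 and Ugt2b35 at 28. The windows of the 8 Ugt2 members held 0 to 2 CpG dinucleotides, against a median of 7 over all windows. A match describes letters and is no measurement of binding.

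Liver was the tissue of conjugation genes. A gene was called higher in a tissue where limma, with tissue and genotype as terms, gave a 2-fold or larger difference from each of the other 3 tissues with an adjusted p under 0.05. Liver was higher for 23 of the 43 members, against 5.41% of all genes, and the 23 comprised 8 of 11 Ugt, 9 of 19 Gst and 6 of 13 Sult genes. No member was called for lung (4.35% of all genes) or thymus (3.42%), and 1 was called for heart (2.6%). The highest of the 4 tissue means was in liver for 30 members, in heart for 7, in lung for 3 and in thymus for 3. In bulk tissue, fewer cells of a type and less RNA per cell cannot be told apart.

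**Figure D1:**
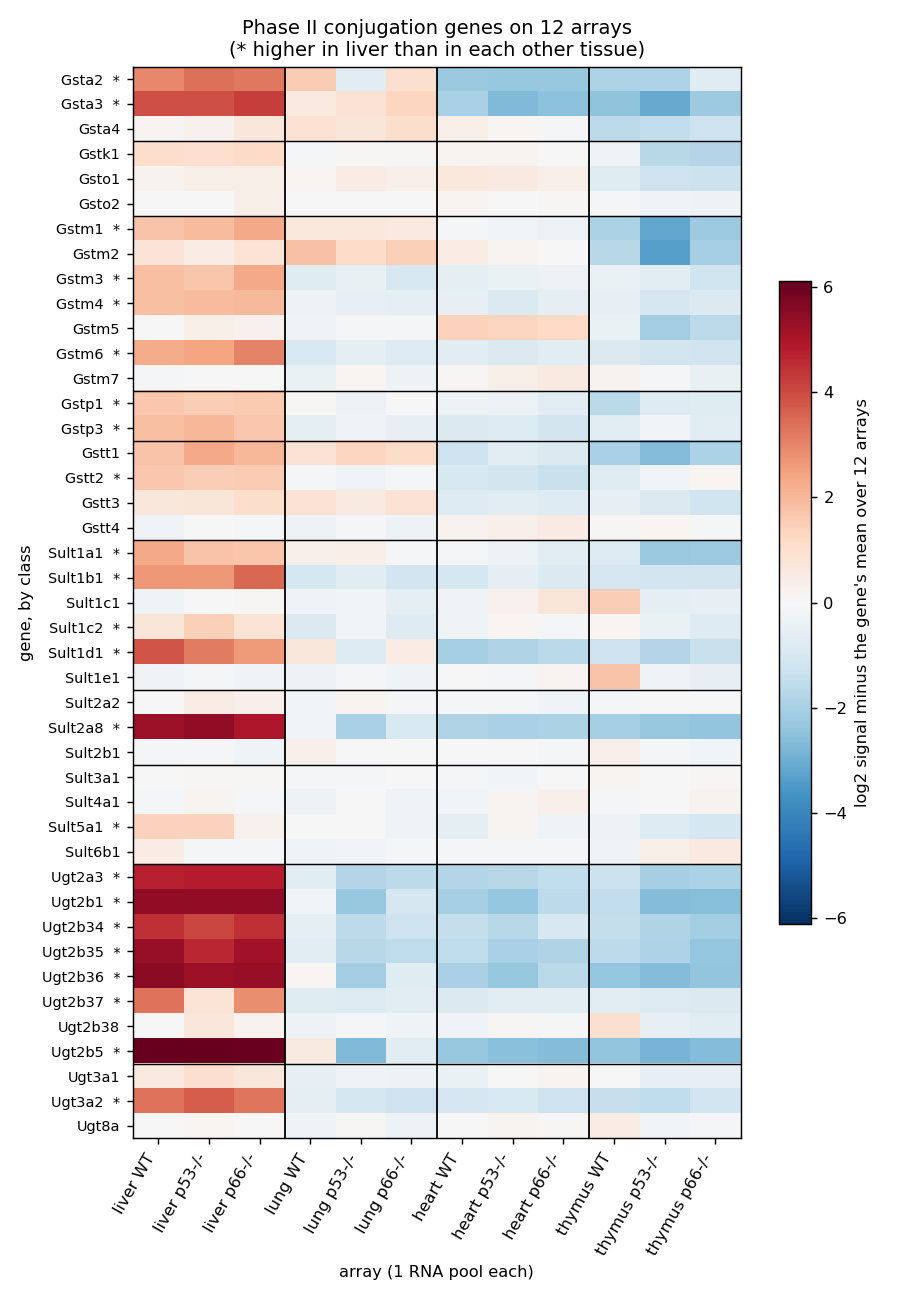
Each row is 1 of the 43 genes, grouped by class, and each column is 1 array; colour gives the log2 signal minus the gene's own mean over the 12 arrays, and an asterisk marks the 23 genes higher in liver than in each other tissue. The 3 liver columns are red through most of the Ugt2 block, while lung WT is paler blue or red than lung p53-/- in the same rows.

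The Ugt2 enzymes, which glucuronidate steroids, bile acids and many drugs, gave the widest liver margins. Ugt2b5 read 12.90 (WT), 12.89 (p53-/-) and 12.85 (p66-/-) in liver, 7.32, 4.09 and 6.14 in lung, 4.44, 4.20 and 4.13 in heart, and 4.36, 3.92 and 4.11 in thymus. The liver arrays lay above all others, and the lung arrays were the ones that differed among themselves. Its liver mean was 131-fold above its lung mean (log2 difference 7.03, SE 0.50, adjusted p = 1.43e-06, limma). Ugt2b1 read 12.80, 12.79 and 12.78 in liver and 7.22, 5.04 and 6.36 in lung, with 4.98 to 5.77 in heart and 4.71 to 5.84 in thymus. Its liver mean was 96.0-fold above its lung mean (log2 difference 6.58, SE 0.37, adjusted p = 2.40e-07, limma).

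Ugt2b36 was at 13.48 ± 0.13 in liver and 7.18 ± 1.13 in lung, Ugt2b35 at 12.35 ± 0.36 and 6.02 ± 0.57, and Ugt2b34 at 10.93 ± 0.22 and 5.44 ± 0.54 (SD, n = 3). Ugt2a3, the member of the 2A branch with its own probe set, was at 10.82 ± 0.03 in liver and at 4.68 ± 0.61 or less elsewhere. For these genes lung had the second highest mean, above heart by 1.05 for Ugt2b36 (adjusted p = 0.0368, limma). For Ugt2b35, Ugt2b34 and Ugt2a3 lung lay 0.49, 0.22 and 0.31 above heart, with adjusted p of 0.0879, 0.464 and 0.326 in limma. The spread over the lung arrays was wider than over the liver arrays. In each of these genes the p53-/- lung value was no higher than the highest heart array. Ugt3a2, from a family that uses other sugars than glucuronic acid, was at 10.46 ± 0.24 in liver and 6.04 ± 0.34 in lung, while its neighbour in name, Ugt3a1, was at 8.06 ± 0.23 and 6.94 ± 0.13 and its liver mean lay only 0.86 above its heart mean, under the margin of 1. Ugt8a, the ceramide galactosyltransferase of myelin, read 5.34 to 6.14 on every array.

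Ugt2b37 and Ugt2b38, whose upstream stretches above differ at a single base, did not share a level pattern. Ugt2b37 read 8.34, 5.85 and 7.85 in liver and 4.12 to 4.38 on the other 9 arrays. Ugt2b38 read 4.87, 5.54 and 5.07 in liver and 4.20 to 5.82 elsewhere, with the highest value on the WT thymus array. Probe sets of such similar genes can read each other's transcripts, and that was not tested. In RefSeq order along chromosome 5 the Ugt2 members run Ugt2b34, Ugt2b1, Ugt2b35, Ugt2b36, Ugt2b5, Ugt2b37, Ugt2a3 and Ugt2b38, followed by the members Sult1b1, Sult1d1 and Sult1e1. Of these 11 members 9 were higher in liver, all but Ugt2b38 and Sult1e1. Genes that are no members are left out of this order. Among them are Ugt2a1 and Ugt2a2, read only by a probe set common to both. Its means were 5.07 in liver, 4.30 in lung, 4.82 in heart and 4.55 in thymus.

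**Figure D2:**
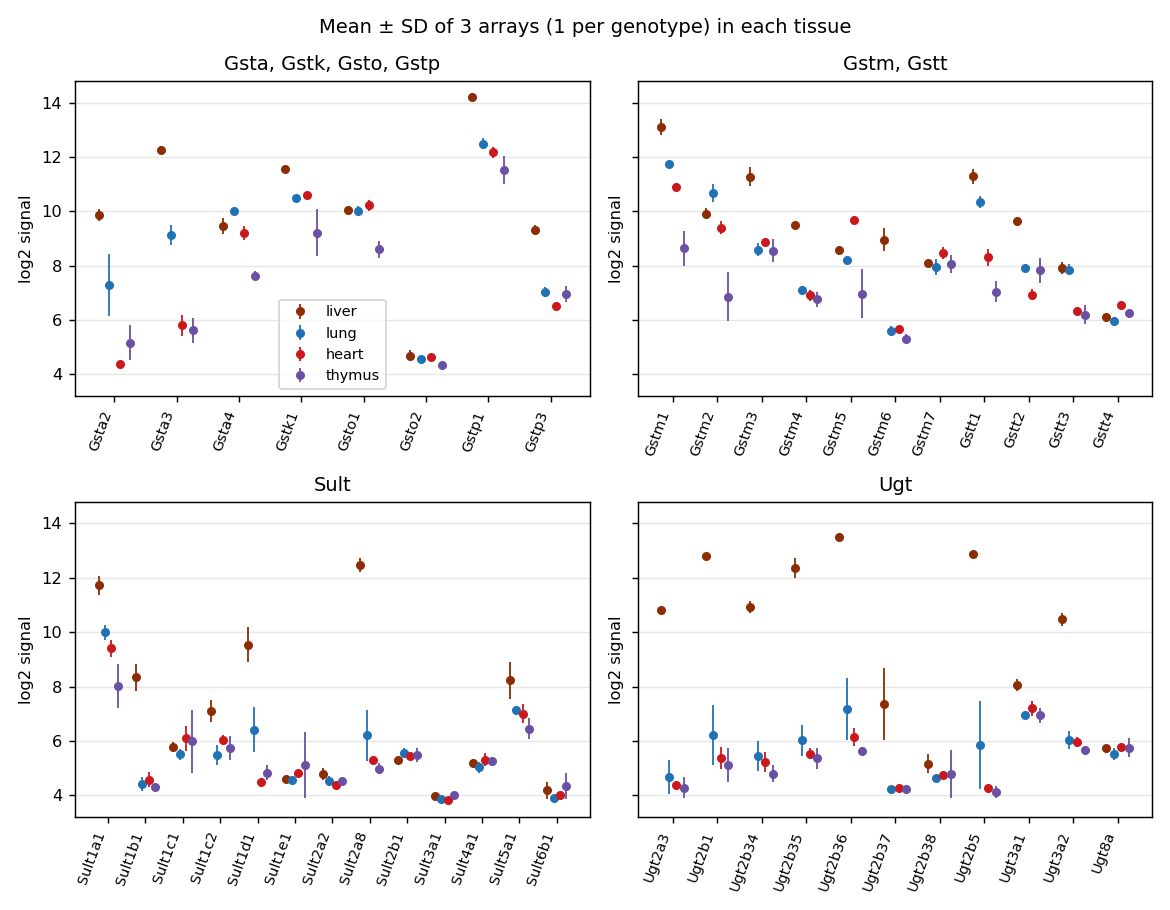
Points are means and bars SDs of the log2 signal over the 3 arrays of a tissue (1 per genotype) for each of the 43 genes, in 4 panels by family. Liver stands apart for 7 of 8 Ugt2 genes, whereas Gsta4, Gstm2 and Gsto1 have lung or heart at or above liver and thymus lowest. The second Gsto1 probe set, not plotted, was highest in liver.

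Among the glutathione S-transferases the alpha class was graded over tissues. Gsta3 read 12.16, 12.17 and 12.43 in liver, 8.80, 9.07 and 9.53 in lung, 6.24, 5.49 and 5.69 in heart and 5.76, 5.12 and 5.99 in thymus. Liver lay above lung by 3.12 (SE 0.24, adjusted p = 2.36e-06, limma), and lung above heart by 3.32 (adjusted p = 3.42e-06). Gsta2 followed with 9.86 ± 0.22 in liver, 7.30 ± 1.15 in lung and 4.38 ± 0.02 in heart. Gsta4, which handles the lipid peroxidation product 4-hydroxynonenal, had its highest mean in lung (10.01 ± 0.16) against 9.47 ± 0.29 in liver, a difference with an adjusted p of 0.0577 in limma.

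Of the mu class, Gstm1, Gstm3, Gstm4 and Gstm6 were higher in liver. Gstm6 was at 8.96 ± 0.43 in liver and 5.66 ± 0.13 in heart, the next tissue, and Gstm1 at 13.11 ± 0.30 in liver and 11.73 ± 0.04 in lung. Gstm2 was highest in lung (10.68 ± 0.33) and Gstm5 in heart, where it read 9.78, 9.68 and 9.55. Gstm5 lay above liver by 1.11 in heart (SE 0.33, adjusted p = 0.0263, limma), and was the sole member called for heart, but this call was lost whenever the arrays of any 1 genotype were left out. Gstm7 was flat, with 7.95 to 8.47 as tissue means, while its second probe set read 9.96 to 10.28 in liver and no more than 7.48 in lung, so its probe sets disagreed on tissue.

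The pi enzymes Gstp1 and Gstp3 were both higher in liver. Gstp1, the main pi-class enzyme and the one that also binds stress kinases, read 14.26, 14.11 and 14.20 in liver, 12.65, 12.26 and 12.57 in lung, 12.30, 12.26 and 11.94 in heart and 10.94, 11.82 and 11.85 in thymus, so the signal was well above the array median of genes everywhere. Its promoter window is shown whole as a contrast to the Ugt2 windows, with its 20 CpG dinucleotides in capitals.
Gstp1 (chr19:4037863-4038162, - strand): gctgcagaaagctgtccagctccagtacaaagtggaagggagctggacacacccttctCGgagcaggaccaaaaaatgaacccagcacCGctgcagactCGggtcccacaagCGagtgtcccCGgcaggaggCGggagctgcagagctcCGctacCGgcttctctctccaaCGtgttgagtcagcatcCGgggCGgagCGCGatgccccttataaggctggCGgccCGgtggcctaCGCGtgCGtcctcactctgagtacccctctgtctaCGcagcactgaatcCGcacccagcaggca
Over members with a window, the richest window held a median of 2 CpG in the 21 genes higher in liver and 4 in the 17 others. The theta genes were split, with Gstt2 called for liver, Gstt1 at 11.29 ± 0.28 in liver and 10.35 ± 0.22 in lung, and Gstt3 equal in both (7.91 ± 0.22 and 7.85 ± 0.20). Gstk1, the mitochondrial and peroxisomal enzyme, was at 11.57 ± 0.06 in liver, 0.98 above heart and just under the margin of 1, and Gsto1, which reduces dehydroascorbate, was at 10.03 ± 0.08, 10.02 ± 0.18 and 10.22 ± 0.19 in liver, lung and heart.

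The antioxidant response element, the NRF2 site, has the core TGACNNNGC. On either strand it was present in the windows of 3 members, Gsta3, Gstm5 and Gstm7, of 38 with a window, and in 12.392% of all windows. The elements of Gsta3, higher in liver, and Gstm5, higher in heart, are printed with 30 bases on each side and the core in capitals.
Gsta3 (chr1:21240434-21240502, + strand): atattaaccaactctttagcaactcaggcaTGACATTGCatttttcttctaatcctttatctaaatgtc
Gstm5 (chr3:107895782-107895850, + strand): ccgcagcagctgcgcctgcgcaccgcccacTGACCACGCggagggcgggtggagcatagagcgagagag
The HNF4 core CAAAGTCCA was present in 1 member, Sult1b1, and in 0.475% of all windows.

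Of the sulfotransferases, 6 were higher in liver and most of the others were dim. Sult2a8, of the family that sulfates bile acids and steroids, read 12.53, 12.67 and 12.19 in liver, 7.08, 5.24 and 6.28 in lung, and 4.83 to 5.38 on the heart and thymus arrays. Liver lay 76.9-fold above lung (log2 difference 6.27, SE 0.32, adjusted p = 1.23e-07, limma). Sult1b1, a thyroid hormone and phenol sulfotransferase, was at 8.35 ± 0.50 in liver and 4.58 ± 0.26 or less elsewhere. Sult1d1, which sulfates catecholamines, was at 9.54 ± 0.63 in liver and 6.42 ± 0.82 in lung. Sult1a1, the main phenol sulfotransferase, had a detectable signal in all tissues, from 11.72 ± 0.35 in liver to 8.01 ± 0.81 in thymus. The calls of Sult1c2 (margin 1.06 over heart) and Sult5a1 (margin 1.09 over lung) lay close to the threshold and were each lost in 2 of the 3 fits that left out a genotype. Sult1e1, the oestrogen sulfotransferase, read 4.29 to 4.96 on 11 arrays and 6.5 on the WT thymus array.

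Thymus was the low tissue for the widely expressed members. Lower signal in thymus than in each other tissue was called for 8 members, against 1.17% of all genes: Gsta4, Gstk1, Gstm1, Gstm2, Gstm5, Gsto1, Gstt1 and Sult1a1. Gstm2 was at 6.86 ± 0.90 in thymus and 9.40 ± 0.25 in heart (difference 2.55, SE 0.27, adjusted p = 7.07e-05, limma), and Gstm1 at 8.63 ± 0.65 and 10.90 ± 0.14. Without the p53-/- arrays the calls of Gstk1, Gstm5 and Gstt1 were lost, and without the p66-/- arrays those of Gstk1, Gstm5 and Sult1a1, leaving 5 each time. No member was lower in liver (1.97% of all genes), lung (0.0934%) or heart (2.08%).

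Genes that feed or follow the transferases had their highest signal in liver in part. Of 14 genes of glutathione synthesis and recycling 7 were higher in liver, among them Gclc (11.69 in liver, 9.65 in lung) and Gclm (12.31 and 9.62), the subunits of the first and limiting enzyme. Of 8 genes that supply UDP-glucuronic acid 3 were, including Ugdh, which makes it (11.19 and 9.17), and the transporter Slc35d1 (10.15 and 6.44). Of 10 sulfate donor genes 4 were, including the PAPS synthase Papss2 (10.29 and 8.49), and Papss1 was not (8.36 and 9.54). Of 20 other conjugation and detoxification enzymes 11 were, of 14 conjugate transporters 8, and of 15 regulators 7, including the receptors Nr1i2 and Nr1i3 and Hnf4a (11.49 in liver, 7.70 in lung). Of 12 glutathione transferases and relatives outside the symbol rule only Gstz1 was, and of 15 NRF2 targets outside conjugation 2 were (Gclc and Gclm).

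In liver, the knock-outs differed little from WT. In p53-/- liver 1 member was 2-fold or more lower, against 0.418% of all genes, and 0 were higher (0.0934%). It was Ugt2b37, whose values were 8.34 in WT, 5.85 in p53-/- and 7.85 in p66-/- liver, so that the p53-/- value minus WT was -2.50 and p53-/- minus p66-/- was -2.01. The other Ugt2b genes called for liver differed from WT by 0.00 to 0.70 in p53-/- liver, with Ugt2b35 at 12.64 in WT and 11.94 in p53-/-. In p66-/- liver 2 members were lower (0.302% of all genes) and 0 higher (0.0824%). Sult1d1 read 10.19 in WT, 9.51 in p53-/- and 8.93 in p66-/- liver, and its second probe set ran the same way with 10.06, 9.34 and 8.90. Sult5a1 read 8.60, 8.62 and 7.45. The highest differences upward were 0.75 for Sult1c2 in p53-/- and 0.85 for Sult1b1 in p66-/- liver, both under 2-fold. The median member differed from WT by 0.08 in p53-/- and 0.07 in p66-/- liver, and the median of all genes by 0.00 and 0.02. The list of male-biased liver genes, relevant since several Ugt2b and Sult genes differ between the sexes, had means of 11.16, 11.26 and 11.17 in the 3 liver pools. Of its 9 genes 1 was 2-fold or more higher in p53-/- liver. The 9 female-biased genes had means of 6.18, 5.99 and 5.95, with 1 gene 2-fold or more lower in each knock-out. For 4 sex chromosome genes the means were 7.04, 7.06 and 6.92. Whether the pools matched in sex was not tested.

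**Figure D3:**
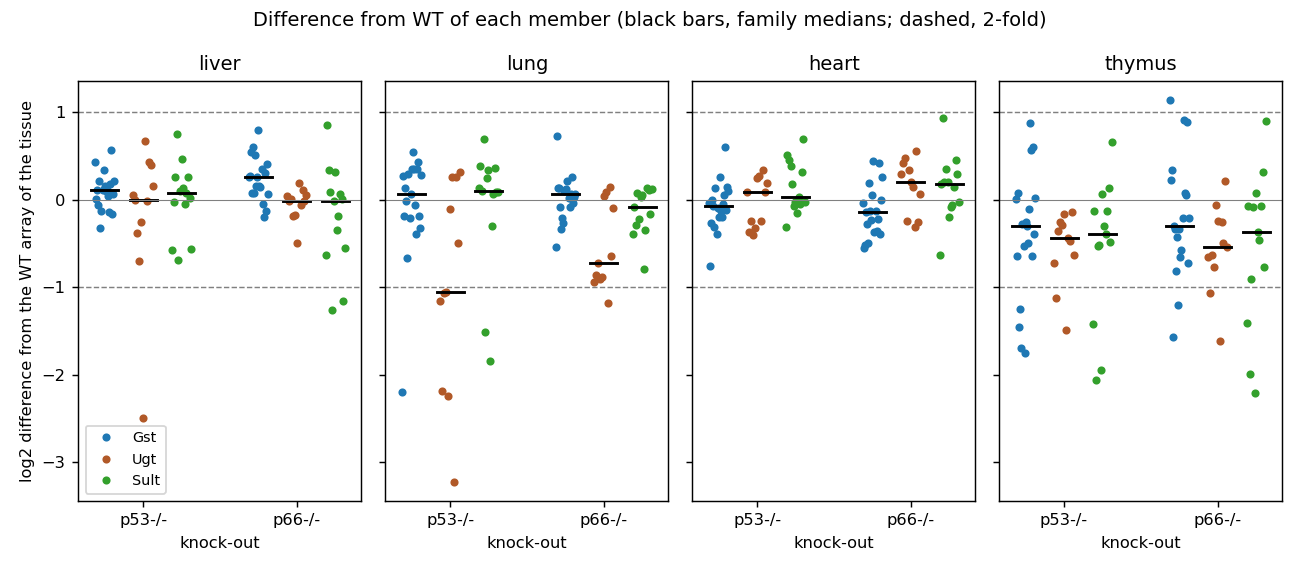
Each point is 1 gene's log2 difference from the WT array of the same tissue, in p53-/- and p66-/- and by family; black bars are family medians and dashed lines mark 2-fold. The Ugt medians in lung are -1.05 and -0.73, and in thymus all 3 family medians lie below 0 in both knock-outs.

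In p53-/- lung, the members 2-fold or more below WT were all genes called for liver. That call itself uses the lung arrays. The share of liver-called genes among all genes lower in p53-/- lung is not given here. The median over the 43 members was 0.07 above WT, and the median of all genes was also 0.07 above WT. In p53-/- lung 9 members were 2-fold or more lower, against 4.14% of all genes, and 0 were higher (0.616%). Of the 9, 8 had a lung mean under 7.24, the median of all genes in lung, and Gsta2 alone was left where such genes were not counted. The probe set common to Gsta2, Gsta1 and Gm3776 read 7.12 in WT, 6.70 in p66-/- and 6.40 in p53-/- lung, under 2-fold. Ugt2b5 read 7.32 in WT, 6.14 in p66-/- and 4.09 in p53-/- lung, Ugt2b36 read 8.22, 7.35 and 5.98, and Ugt2b1 read 7.22, 6.36 and 5.04. Gsta2 read 8.21 in WT, 7.67 in p66-/- and 6.01 in p53-/- lung, and Sult2a8 read 7.08, 6.28 and 5.24. In each of these the p66-/- array lay between the others, which held for all 9. Sult1d1 (-1.51), Ugt2a3 (-1.15), Ugt2b34 (-1.06) and Ugt2b35 (-1.05) made up the rest, and Ugt2b34 was at -0.87 when its 2 probe sets were averaged. In 7 of the 9 the p53-/- lung value was no higher than the highest of the 3 heart arrays. In p66-/- lung 1 member, Ugt2b5, was lower (0.313% of all genes) and 0 were higher (0.341%), and it was also the 1 member lower in both knock-outs of lung (0.291%).

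The same lung arrays differed in hepatocyte transcripts. Of 23 hepatocyte markers 18 were 2-fold or more lower in p53-/- and 8 in p66-/- lung, with median differences of -2.91 and -0.83. Albumin read 13.13 in WT, 12.30 in p66-/- and 8.79 in p53-/- lung. Of 12 skeletal muscle genes 6 were 2-fold or more lower in p53-/- lung (median -1.15). The part of these transcripts in the member differences was not tested. The 20 members not called for liver had a median difference from WT of 0.19 in p53-/- and 0.09 in p66-/- lung, with none 2-fold lower, and the 23 called for liver of -0.21 and -0.22. The arrays also differed in the Gapdh 3′ minus 5′ probe difference, a sign of RNA integrity, at 2.29 in WT, 0.66 in p53-/- and 1.32 in p66-/- lung, and in the 18S ribosomal RNA signal, at 5.52, 9.79 and 5.94, and their part was not tested either. Among members brighter in lung, Gstm2 read 11.02, 10.35 and 10.69 in WT, p53-/- and p66-/- lung. Probe sets disagreed for others. Gsta3 read 8.80, 9.07 and 9.53 on its main probe set and 7.85, 7.16 and 7.59 on the second, and the p53-/- minus WT values of the 4 Gstm1 probe sets ran from -0.61 to 0.14. The main Gsto1 probe set read 9.83, 10.18 and 10.04 and the second 10.46, 9.0 and 10.21.

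**Figure D4:**
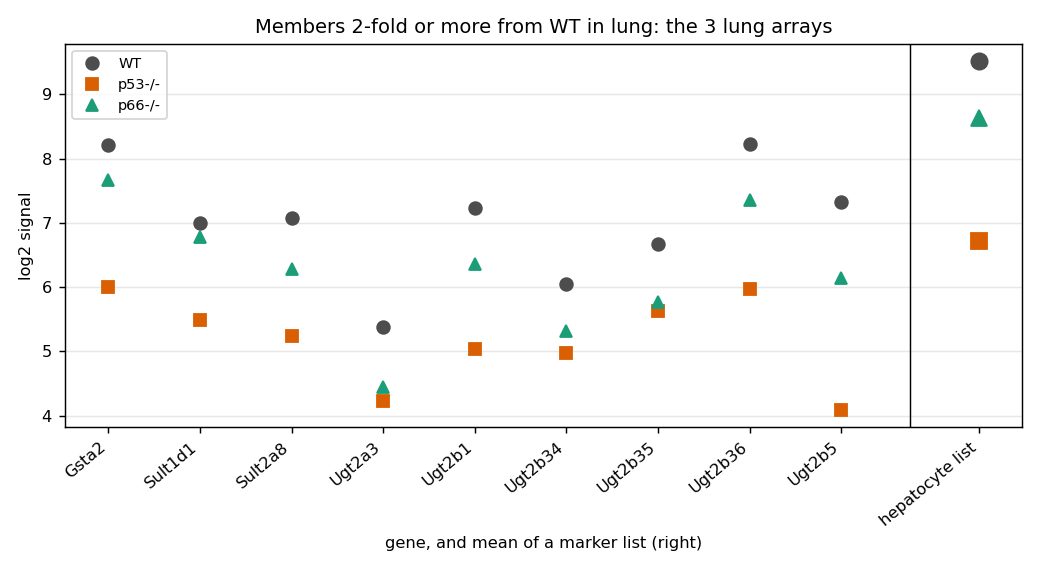
Points are log2 signals on the 3 lung arrays for the 9 genes 2-fold or more from WT in lung, with the mean of 23 hepatocyte markers at the right. In every column WT is highest, p66-/- between and p53-/- lowest.

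In heart no member was 2-fold or more from WT in either direction, where 0.115% of all genes were higher and 2.08% lower in p53-/- and 0.181% and 1.67% in p66-/- heart. The differences ran from -0.75 (Gsta3) to 0.70 (Sult5a1) in p53-/- and from -0.63 (Sult1a1) to 0.94 (Sult1c1) in p66-/- heart. Gstm5, the member highest in heart, read 9.78, 9.68 and 9.55 in WT, p53-/- and p66-/-.

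In thymus, members of all 3 families were 2-fold or more lower in each knock-out. In p53-/- thymus 9 members were 2-fold or more lower, against 4.81% of all genes, and 0 higher, where 8.89% of all genes were. In p66-/- thymus 7 were lower (4.78%) and 1 higher (12.7%). Lower in both were 7 members, against 2.91% of all genes: Gstk1, Gstm5, Sult1a1, Sult1c1, Sult1e1, Ugt2b1 and Ugt2b38. Both comparisons use the same WT array. Most members past 2-fold were dim, and Gstk1, Gstm1 and Sult1a1 in p53-/- and Gstk1 and Sult1a1 in p66-/- were the ones with a thymus mean above 7.17, the median of all genes in thymus.

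Sult1c1 read 7.33 in WT, 5.27 in p53-/- and 5.34 in p66-/- thymus, and 5.28 to 6.56 on the other 9 arrays. Sult1e1 read 6.5, 4.56 and 4.29, and Ugt2b38 read 5.82, 4.33 and 4.20. For these 3 the WT thymus array was the highest of the 12, and both knock-outs lay within or below the range of the other tissues. Sult1a1 read 8.95, 7.54 and 7.55, and Gstk1 read 10.22, 8.77 and 8.66. Gstm5 read 7.96, 6.21 and 6.75, and Gstm2, called in p53-/- alone, read 7.53, 5.84 and 7.2. For Gstm1, with 9.15, 7.90 and 8.85, all 4 probe sets were lower in both knock-outs than in WT.

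**Figure D5:**
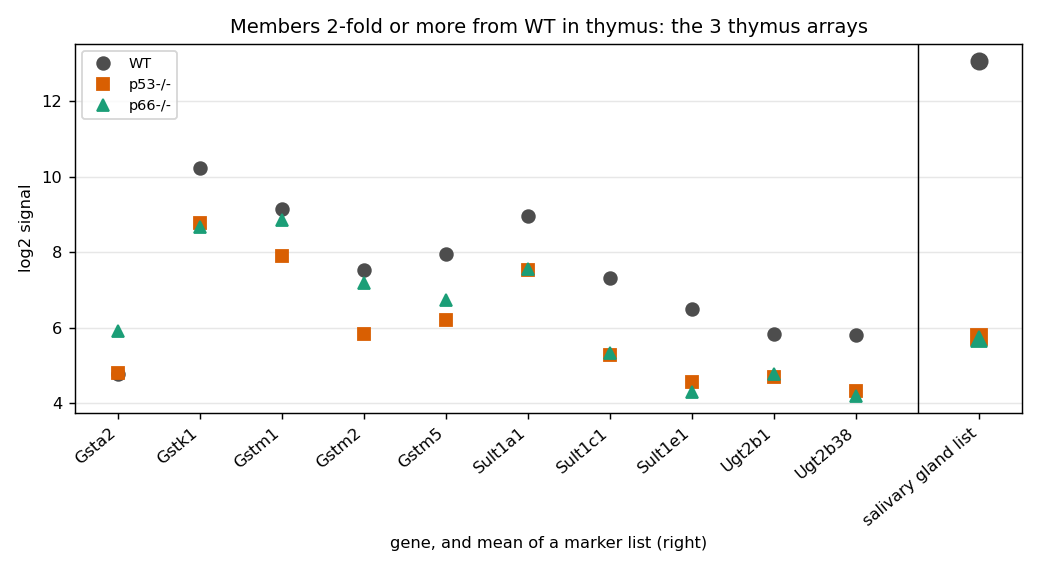
Points are log2 signals on the 3 thymus arrays for the 10 genes 2-fold or more from WT in thymus, with the mean of 15 salivary gland markers at the right. WT is highest for all genes but Gsta2, which is highest in p66-/-.

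Members above WT were few. Gsta2 read 4.79 in WT, 4.80 in p53-/- and 5.93 in p66-/- thymus. A probe set common to Gsta2, Gsta1 and Gm3776 ran the other way, with 5.99, 5.46 and 5.28. On the p66-/- thymus array 2 of 11 alveolar markers were 2-fold or more higher than WT and 2 lower (median 0.28). The surfactant gene Sftpc, 1 of the higher ones, read 9.35 there against 6.34 in WT and 6.08 in p53-/- thymus. Of 23 hepatocyte markers 3 were higher and 1 lower on that array (median -0.19). Gstp1 read 10.94, 11.82 and 11.85, and Gstt2 read 7.33, 7.93 and 8.22, both under 2-fold. The median member differed from WT by -0.39 in p53-/- and -0.34 in p66-/- thymus, and the median of all genes by -0.01 and -0.03. Of the 11 Ugt genes 0 were above WT in p53-/- and 1 in p66-/- thymus. On the same arrays 13 of 15 salivary gland markers were 2-fold or more lower in each knock-out, with medians of -8.80 and -8.92, and 8 and 9 of 12 thymocyte markers were 2-fold or more higher, with medians of 1.55 and 1.45. Of 10 thymic epithelial markers 7 and 6 were higher (medians 1.25 and 1.56). Of 12 skeletal muscle genes 11 were 2-fold or more higher in p53-/- and 0 in p66-/- thymus (medians 2.90 and 0.01). Of 12 cardiomyocyte markers 8 and 3 were 2-fold or more lower in p53-/- and p66-/- thymus, and 0 and 2 higher (medians -2.62 and -0.19). The 18S signal was 10.86 in WT, 10.30 in p53-/- and 5.97 in p66-/- thymus. The part of these cell types, or of RNA quality, in the member differences was not tested. Compared with each other, the p53-/- and p66-/- thymus arrays differed 2-fold in 2 members, Gsta2 and Gstm2, both lower in p53-/- (1.18% of all genes lower), by 1.13 and 1.36.

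Over the 4 tissues together, no member was called in either knock-out by limma with tissue as a term, and of all genes 1 was, lower in p53-/- (0.0055%). At an unadjusted p under 0.05 there were 8 members in p53-/- (10.3% of all genes) and 2 in p66-/- (3.94%). The lowest p in p53-/- was that of Ugt2b35 (-0.60, SE 0.18, adjusted p = 0.337, limma), followed by Gstm2 (-0.75) and Ugt2b1 (-0.92). In p66-/- it was that of Sult1a1 (-0.76), where every member had an adjusted p of 1 in limma, with Ugt2b35 (-0.53) and Sult2b1 (-0.26) next. Ugt2b35 was below WT in both knock-outs of all 4 tissues, with p53-/- differences of -0.70 in liver, -1.05 in lung, -0.40 in heart and -0.25 in thymus. Without the thymus arrays 2 members passed in p53-/-, where 2.11% of all genes did: Sult1c2, higher by 0.61 (SE 0.14, adjusted p = 0.0485, limma), and Ugt2b35, lower by 0.72 (adjusted p = 0.0491). Without both lung and thymus their adjusted p were 0.176 and 0.178 in limma.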

How the data were processed

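Per the labels and the study's methods, total RNA pooled from 4 mice per genotype was hybridised to 12 Affymetrix mouse arrays, and the deposited values are log2 signals that the authors made by RMA in Partek 6.5 (background correction, quantile normalization, median polish). The sources disagree on the array format and on the labelling input, so neither is stated. No genome build is needed for these values and no raw intensities were used. Of 45101 probe sets, 64 controls, 932 with several symbols and 9160 with none were left out, and 34945 remained. For a gene with several, the probe set brightest on average over the arrays was used, which gave 18193 genes. Of the probe sets used for members 4 end in _x_at or _s_at, which can read related genes. The number of arrays limits the precision.

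Tissues were compared with limma 3.58.1 in R 4.3.3 (tissue and genotype as terms, 6 residual degrees of freedom, Benjamini-Hochberg adjustment over all genes within each contrast). A call needed an adjusted p under 0.05 and a 2-fold difference from each other tissue. The p-values of these tissue comparisons measure the spread over 1 array per genotype. In the fit of the knock-outs across tissues, the 4 tissues stand in as repeats of a genotype. Their p-values measure the spread over tissues, whose pools may come from the same mice. Knock-out and WT arrays of a tissue were subtracted, with 2-fold as the call and no test. Code was tested on simulated data. The members, gene lists and marker lists were chosen with earlier results of these data known. Genes named in the text were those called, the 2-fold members, the outer differences per tissue, the leading gene of each class, and up to 4 genes of a list, apart from a few given as further values. All 43 members matched RefSeq by Entrez number, and promoter windows were searched in Python 3.11.15. Alternatives were leaving out genotypes or tissues, other fold thresholds, probe set rules, normalizations and limma settings, and filters on low signal.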

Additional observations from a re-analysis of the deposited data

How the results depend on the processing

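Of 26 counts and medians, recomputed under 242 alternatives in all, 212 values stayed within 1.5 times or within the spread and 30 moved. Leaving out 1 genotype at a time gave 21 to 23 members higher in liver, 0 in heart, 0 to 1 lower in heart and 5 to 8 lower in thymus. At 4-fold, 17 members were higher in liver, 0 higher in heart and 2 lower in thymus, and at 1.5-fold 1 was lower in heart. Among the 19 members at or above the median signal, 11 were higher in liver. With the WT lung and WT thymus arrays left out, an alternative chosen after seeing the data, 23 members were higher in liver, 1 lower in heart and 8 lower in thymus; without the p66-/- lung and thymus arrays as well, 24 were higher in liver. Without the p53-/- or p66-/- arrays the thymus count fell to 5, and in the fit across tissues the p53-/- count was 0 to 2 when 1 tissue was left out, with 2 without thymus.

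At 1.5-fold the members different from WT numbered 5 and 6 in p53-/- and p66-/- liver, 9 in p66-/- lung, 3 and 2 in heart, and 16 and 19 in thymus. At 3-fold they numbered 0 in p66-/- liver, 5 and 0 in lung, and 4 and 3 in thymus. Shares of all genes at 1.5-fold, 3-fold and 4-fold are not given here, so the counts at these thresholds have no background beside them. With genes under the median signal of the tissue left out, 1 and 0 remained in lung and 3 and 2 in thymus, out of 15 and 9 members tested. With the p66-/- array as reference, also chosen after seeing the data, p53-/- differed 2-fold in 2 members in liver (0.214% of all genes). It differed in 6 in lung (3.38%), all lower in p53-/-, in 0 in heart (0.286%) and in 2 in thymus (1.8%). Of 30 single differences past 2-fold, 150 recomputed values kept their direction and 5 fell under 2-fold: Ugt2b34 in p53-/- lung (-0.87 and -0.68 with other probe set rules) and Ugt2b1 in p66-/- thymus (-0.91, -0.87 and -0.92 with other normalizations). The member medians in p53-/- lung (-0.06 to 0.08), p66-/- lung (-0.05 to 0.03), p53-/- heart (-0.13 to 0.00) and p66-/- heart (-0.25 to 0.05) lay on both sides of 0, while those in thymus stayed below it (-0.39 to -0.30 and -0.57 to -0.19). Except for fewer genes or arrays tested, the cause of a shift was not tested. Signals under the array median of genes limit what the arrays resolve for 10 members.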
